A study of Mus musculus with 4 samples.

Results

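The genes described here are 9 genes of the matrix metalloproteinase system among the 56748 gene IDs counted in *Hnrnpl* knockdown myoblasts. They are 6 metalloproteinases (*Mmp2*, *Mmp3*, *Mmp9*, *Mmp14*, *Mmp15* and *Mmp19*) and 3 tissue inhibitors of metalloproteinases (*Timp1*, *Timp2* and *Timp3*), found by matching the Ensembl ID, without its version, to the GENCODE symbol. The set was chosen by the fold change of *Mmp15* in these libraries, which was much lower in the knockdown, so the knockdown against scrambled values of *Mmp15* are given as a description with no test. All 9 genes had at least 1 read in at least 1 library, and 5 of the 9 passed the filter on low counts.

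Matrix metalloproteinases are zinc-dependent enzymes that cut collagens, other matrix proteins and proteins at the cell surface. They are made as inactive proenzymes in which a cysteine of the propeptide blocks the active-site zinc, and most leave the cell, whereas *Mmp14* and *Mmp15* encode membrane-type enzymes that furin-like convertases can activate. TIMPs bind the active site through their amino end and inhibit the enzymes, and in muscle this balance takes part in matrix remodelling around migrating and fusing myoblasts.

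C2C12 is an established mouse myoblast line. RNA of undifferentiated cultures kept in growth medium was read directly, without cDNA, on nanopore flow cells. The cells had been transfected with plasmids that carried eGFP and either a scrambled shRNA or a mixture of 3 shRNAs against *Hnrnpl*, which encodes an RNA-binding protein known to bind CA-rich RNA, and cells of both groups were labelled wild type and selected as stable lines in puromycin at 3 µg/mL. Each group held 2 libraries, taken from different passages of 1 selected line, and each of the 2 labelled batches held 1 scrambled and 1 knockdown library. The p-values below therefore measure the spread between passages of one line, and the effect of the shRNAs cannot be told apart from other differences between the selected lines.

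Between 1229424 and 1676911 reads were counted on genes per library, so a count of 0 allowed a level of up to 1.79 to 2.44 CPM (counts scaled to a library total of 1000000 counted reads) at 3 counts, a limit that covers counting error only. *Hnrnpl* itself had 358 and 656 reads in the scrambled libraries, numbered 1 and 2, and 242 and 258 in the knockdown libraries, and fell by 0.78 on the log2 scale (SE 0.18, adjusted p = 0.0112, edgeR). Without scrambled 2 its log2 fold change was -0.48 (adjusted p = 0.194), and without knockdown 1 it was -0.62 (adjusted p = 0.150). With DESeq2 and the parametric fit the adjusted p of *Hnrnpl* was 0.0567. Of the 8 myoblast markers listed, *Myf5*, *Des*, *Cdh15* and *Chrna1* had 14 to 571 reads in every library, *Myod1* and *Msc* had 1 read each in all, and *Pax7* and *Myog* had none. Of the 4 markers tested, *Des*, *Cdh15* and *Chrna1* were called lower in the knockdown, beside 3.22% of all genes tested, and *Myf5* was not called (log2 fold change -0.16, adjusted p = 0.615). Summed markers of fibroblasts were at 154 to 195 CPM, almost all of it *Pdpn*, while *Thy1*, *Dpt* and *Lum* were at 0. Summed markers of macrophages, which also make metalloproteinases, were at 22.34 and 25.05 CPM in scrambled cells and 28.4 and 43.9 CPM in knockdown, led by *Cd14*, while *Adgre1*, *Ptprc* and *Itgam* were at 0. The part of these markers in the values below was not tested.

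The coding sequence shows what the 6 enzymes share. Each was found to hold 1 zinc-binding stretch of 33 bases in its canonical transcript (GENCODE vM39, GRCm39, forward strand in all 6), read here from the genome. Capitals mark the codons of the 3 histidines that hold the zinc.
Mmp15 (chr8:96095213-96095245, exon 5): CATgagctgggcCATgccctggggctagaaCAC
Mmp14 (chr14:54675084-54675116, exon 5): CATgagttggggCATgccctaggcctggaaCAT
Mmp2 (chr8:93565907-93565939, exon 8): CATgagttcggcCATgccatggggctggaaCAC
Mmp9 (chr2:164793053-164793085, exon 8): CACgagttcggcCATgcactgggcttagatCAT
Mmp3 (chr9:7449775-7449807, exon 5): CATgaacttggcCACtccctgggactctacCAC
Mmp19 (chr10:128631542-128631574, exon 5): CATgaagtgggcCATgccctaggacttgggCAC
Over this stretch *Mmp15* shared 27 of 33 bases with *Mmp14*, the other membrane-type enzyme, and 29 of 33 with *Mmp2*.

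A run of basic codons, the form that furin cuts, separates the membrane-type pair from the other 4 enzymes, in which the search found none. Capitals mark all 4 basic codons.
Mmp15 (chr8:96092992-96093003, codons 124 to 127): CGGCGGAAACGT
Mmp14 (chr14:54673659-54673670, codons 108 to 111): CGGAGGAAGCGC
The inhibitors share their amino end, where the capitals mark the codons of the first pair of cysteines of the secreted protein, the end that enters the active site of the enzyme.
Timp1 (chrX:20737350-20737376, forward strand): TGTagcTGTgccccaccccacccacag
Timp2 (chr11:118245812-118245838, reverse strand): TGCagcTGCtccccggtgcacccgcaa
Timp3 (chr10:86136787-86136813, forward strand): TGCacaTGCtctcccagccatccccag
*Timp1* and *Timp2* shared 18 of 27 bases here, *Timp2* and *Timp3* 17 and *Timp1* and *Timp3* 16.

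The levels of the 9 genes spanned several orders of magnitude. As CPM per kilobase of the canonical transcript, *Timp1* stood highest in scrambled cells (1261 and 934), followed by *Timp2* (162 and 156), *Timp3* (5.04 and 7.58), *Mmp15* (2.39 and 4.30) and *Mmp14* (2.07 and 3.21). The values of *Mmp15* and *Mmp14* overlapped between libraries, and those of every other neighbouring pair in this order did not. *Mmp19* followed at 0.208 and 0.345 CPM per kilobase, and *Mmp9*, *Mmp2* and *Mmp3* rested on at most 1 read in scrambled cells, so their order was not detectable at this depth. In knockdown cells *Mmp15* stood at 0.142 and 0.158 CPM per kilobase, below *Mmp19* (0.210 and 0.235), although each of these levels rested on 1 read per library. *Mmp14* (4.70 and 3.21) and *Timp3* (3.23 and 3.27) overlapped in the knockdown on this scale. A direct RNA read can stand for a whole molecule. Without the division by length *Mmp15* (12.3 and 22.1 CPM) was above *Mmp14* (5.77 and 8.95 CPM) in both scrambled libraries and the values did not overlap, and *Timp3* (15.3 and 15.5 CPM) was above *Mmp14* (13.1 and 8.95 CPM) in both knockdown libraries.

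**Figure D1:**
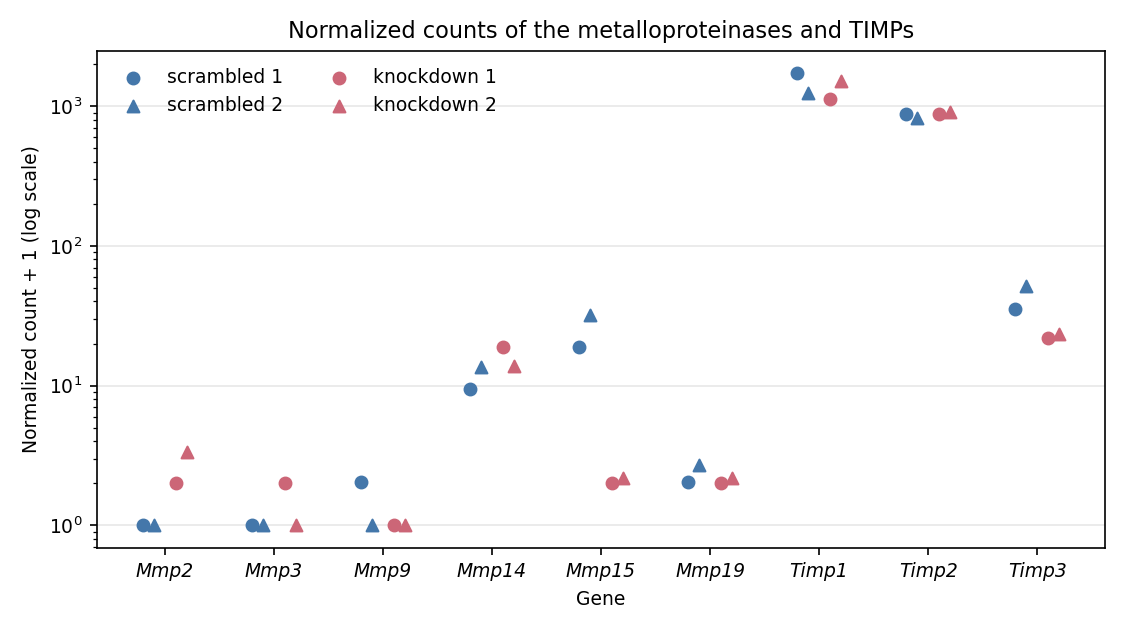
Normalized count plus 1 (log axis) of each of the 9 genes in each library; circles are batch 1 and triangles batch 2, blue scrambled and red knockdown. *Mmp15* and *Timp3* are lower in both knockdown libraries than in both scrambled libraries, while *Timp1* and *Timp2* overlap between the groups.

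*Mmp15* (ENSMUSG00000031790.9) spans 96078895 to 96101708 of chromosome 8, forward strand, and has 10 exons in its canonical transcript of 5136 bases. It had 17 (scrambled 1) and 37 (scrambled 2) control reads, and 1 read in each knockdown library. The scrambled libraries were both high and differed from each other, and the knockdown libraries were both near the limit of detection. After TMM scaling to a library of mean size, the normalized counts were 24.5 ± 9.42 (SD, n = 2) among scrambled libraries and 1.08 ± 0.122 (SD, n = 2) in knockdown. The summed reads, 54 against 2, gave a level 23.4-fold lower in the knockdown, with a 95% interval for counting error of 6.18-fold to 198-fold. The fitted log2 fold change was -4.38 (SE 0.65) on a chromosome with a median of -0.08, and it was the 5th lowest of the 8670 genes tested. Within batch 1 the log2 ratio of normalized counts, with 0.5 added, was -3.61, and within batch 2 it was -4.24. Without scrambled 2, which held most of the reads, the log2 fold change was -3.90. The mean normalized count over all 4 libraries was 12.8, close to the minimum of 10 that a call required. In bulk RNA of this kind, fewer cells that express a gene and less RNA per cell cannot be told apart.

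Over all genes, 481 of the 8670 genes tested were called (5.55%), 202 of them higher (2.33%) and 279 lower (3.22%). Apart from *Mmp15*, whose contrast chose the set, none of the 4 other genes tested here was called (edgeR), and 1 of them, *Timp3*, had an unadjusted p under 0.05, against 1894 of the 8670 genes. With DESeq2, too, none of the 4 was called. Both knockdown libraries were below both scrambled libraries for 26.0% of all genes tested and above both for 26.4%. Of the 5 genes tested here, *Mmp15* and *Timp3* lay below and *Mmp14* lay above, by a narrow margin. In these counts nothing particular to the metalloproteinase system was tested.

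The tested genes around *Mmp15* were not called. The 5 tested genes on either side, from *Ccdc102a* at -449 kb to *Setd6* at 364 kb from its start, had log2 fold changes from -0.64 (*Adgrg1*, SE 0.43) to 0.54 (*Adgrg3*, SE 0.30). *Usb1*, the nearest tested gene upstream at -21.0 kb, had 72 and 91 reads in scrambled cells and 65 and 41 in knockdown. *Cfap20*, the nearest downstream at 68.0 kb, had 108 and 135 reads against 121 and 94, a log2 fold change of 0.03 (SE 0.17). The annotation has no other gene over the exons of *Mmp15* on either strand.

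**Figure D2:**
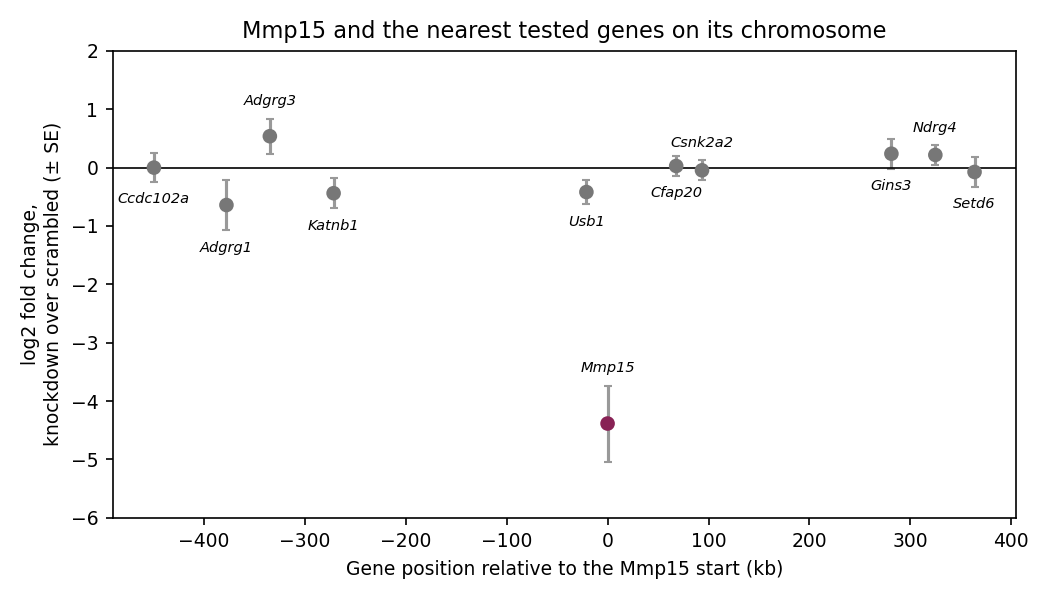
Fitted log2 fold change with its standard error (vertical axis) of *Mmp15* and the 5 nearest tested genes on each side against the distance of their annotated starts from that of *Mmp15* in kilobases. *Mmp15* stands at -4.38, and its neighbours lie between -0.64 and 0.54.

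The 250 bases before the annotated start of *Mmp15* (GRCm39, forward strand) are shown because this is the gene with the lowest log2 fold change of the set, and capitals mark the motifs found.
Mmp15 promoter (chr8:96078645-96078894): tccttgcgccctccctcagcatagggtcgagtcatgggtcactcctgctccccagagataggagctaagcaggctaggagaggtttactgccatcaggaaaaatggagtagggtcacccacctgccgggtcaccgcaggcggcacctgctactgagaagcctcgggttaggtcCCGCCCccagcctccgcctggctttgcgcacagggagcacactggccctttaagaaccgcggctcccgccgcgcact
The window is 63.2% G and C. It was searched on both strands for TGANTCA (the AP-1 site of several metalloproteinase genes), GGGCGG (a GC box), TATAAA and CACGTG. It holds 1 match of GGGCGG, on the reverse strand, which 36.3% of 21770 promoters of the same length also hold, and no match of the other 3. TGANTCA was found in 6.17% of all promoters and, of the 9 genes here, in those of *Mmp3*, *Mmp9* and *Mmp19*. TATAAA was found in 11.9% of all promoters and here in that of *Mmp3*, and CACGTG in 6.26% of all promoters and in none of the 9. GGGCGG was also found in the promoters of *Mmp2* and *Mmp9*.

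Because hnRNP L is known to bind CA-rich RNA, the canonical transcripts were searched for CACACACA, on the sense strand alone. Of the 9 transcripts, 4 held 1 run each, shown in capitals within 30 bases.
Mmp15 (chr8:96099235-96099264, forward strand, 3′ UTR, exon 10): gccctcctagcCACACACAtccccctgcca
Mmp14 (chr14:54673239-54673268, forward strand, coding part of exon 2): acctgcgtaccCACACACAacgctcacccc
Mmp9 (chr2:164796880-164796909, forward strand, 3′ UTR, exon 13): accaccaccacCACACACAaaccccatccg
Timp2 (chr11:118193100-118193129, reverse strand, 3′ UTR, exon 5): acgcatatgctCACACACAaactcagactc
Among 2002 transcripts within 10% of the length of *Mmp15*, 29.8% held such a run. Introns included, *Mmp15* held 15 runs, against a median of 5 in 1252 genes of like length, 91.2% of which held at least 1. *Timp2* held 37 (median 15), *Timp3* 29 (median 14), *Mmp2* 9 (median 5), *Mmp14* 8 (median 1), *Mmp3* 5 (median 1) and *Mmp9* 1 (median 1), and *Timp1* and *Mmp19* held none. Of the genes of like length, 99.1% held a run for both *Timp2* and *Timp3*, and 34.9% to 94.1% for the other genes. Binding was not measured.

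*Mmp14* (ENSMUSG00000000957.12, chromosome 14, 54668878 to 54682821, forward strand) encodes the membrane-type enzyme that activates proMMP2 together with TIMP2. It had 8 and 15 reads in scrambled cells and 18 and 11 in knockdown. The normalized counts were 8.38 and 12.6 in scrambled cells and 17.9 and 12.9 in knockdown, so the groups all but touched. The log2 fold change was 0.54 (SE 0.42, 95% interval -0.35 to 1.42, adjusted p = 0.495, edgeR), and a difference was not detectable at this depth. It lies on a chromosome with a median log2 fold change of -0.36. *Gm56768*, a noncoding gene on the same strand within the longest annotated transcript of *Mmp14*, had 34 and 53 reads in scrambled cells and 46 and 32 in knockdown (log2 fold change 0.05), and reads that fit both genes would not have been counted for either.

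The remaining 4 enzymes were at or near the limit of detection. *Mmp2* (ENSMUSG00000031740.9), gelatinase A, had no read in scrambled cells and 1 and 2 reads in knockdown. *Mmp9* (ENSMUSG00000017737.3), gelatinase B, had 1 read in scrambled 1 and none in the other libraries. *Mmp3* (ENSMUSG00000043613.9), stromelysin 1, had 1 read in knockdown 1 and none elsewhere. *Mmp19* (ENSMUSG00000025355.8) had 1 and 2 reads in scrambled cells and 1 in each knockdown library. Both groups of each gene summed to 3 reads or fewer, so no fold was computed and none of the 4 was tested. Genes on the opposite strand cover the 3′ ends of *Mmp2* (*Gm45472*), *Mmp19* (*Tmem198b*) and *Timp3* (*Syn3*), and the strand setting of the counting is not given in the sources used here. Those 3 opposite genes had 1 read between them in all 4 libraries.

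With *Mmp15* at 1 read per library, the make-up of the metalloproteinase reads differed between the groups. The 6 genes together had 27 and 54 reads in scrambled cells and 22 and 15 in knockdown. *Mmp15* made up 63.0% (95% exact binomial interval 42.4 to 80.6) and 68.5% (54.4 to 80.5) of them in scrambled 1 and 2, and 4.55% (0.115 to 22.8) and 6.67% (0.169 to 31.9) in knockdown 1 and 2. These shares follow from the choice of *Mmp15*. The other 5 enzymes together had 10 and 17 reads (7.21 and 10.1 CPM) in scrambled cells and 21 and 14 reads (15.3 and 11.4 CPM) in knockdown, mostly of *Mmp14*. With 2 libraries a group, the smallest p of an exact permutation test is 0.333, so sums were not tested.

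**Figure D3:**
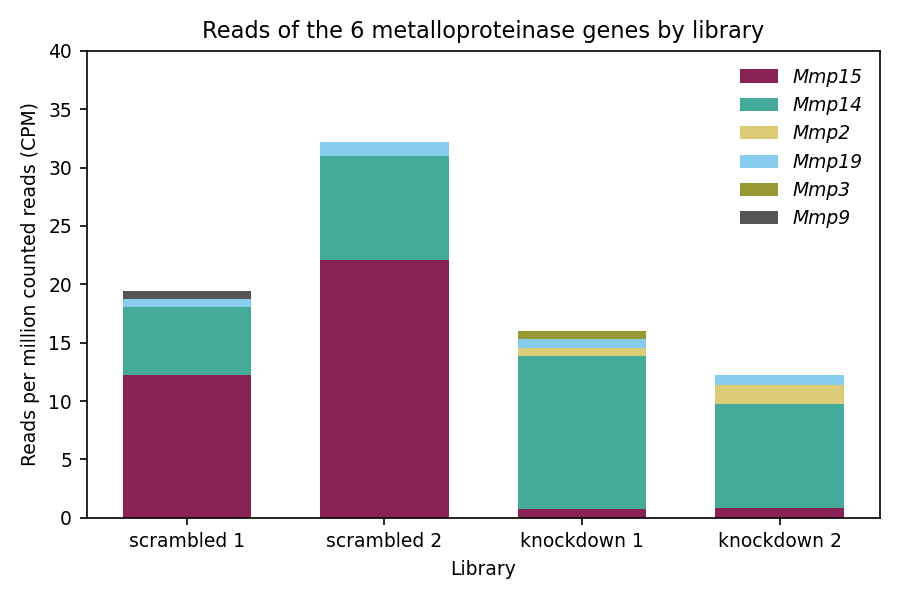
CPM (vertical axis) of the 6 metalloproteinase genes in each library, stacked by gene. *Mmp15* makes up 63.0% and 68.5% of these reads in the scrambled libraries and 4.55% and 6.67% in the knockdown libraries, where *Mmp14* makes up most.

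The inhibitors were measured far more deeply than the enzymes. *Timp1* (ENSMUSG00000001131.12, chromosome X, 20736316 to 20740976, forward strand), a secreted inhibitor of many metalloproteinases, had 1640 and 1467 reads in scrambled cells and 1131 and 1293 in knockdown. Normalized, these were 1717 and 1234 against 1127 and 1511, and the groups overlapped. The log2 fold change was -0.16 (SE 0.17, 95% interval -0.52 to 0.19, adjusted p = 0.624). The batches went opposite ways, with log2 ratios of -0.61 in batch 1 and 0.29 in batch 2. Its sign turned without scrambled 1 (0.09) and without knockdown 1 (0.04).

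*Timp2* (ENSMUSG00000017466.10, chromosome 11, 118191887 to 118246566, reverse strand), which inhibits the enzymes and also links proMMP2 to MMP14 at the membrane, had 845 and 983 reads in scrambled cells and 886 and 782 in knockdown. The normalized counts were 856 ± 40.8 (SD, n = 2) among scrambled libraries and 898 ± 22.1 (SD, n = 2) in knockdown and overlapped. The log2 fold change was 0.07 (SE 0.13, 95% interval -0.21 to 0.35, adjusted p = 0.809), so the interval leaves out a change of 0.5 on the log2 scale in either direction.

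*Timp3* (ENSMUSG00000020044.14, chromosome 10, 86136236 to 86185371, forward strand) encodes the inhibitor that stays bound to the matrix and also blocks ADAM sheddases. It had 33 and 60 reads in scrambled cells and 21 and 19 in knockdown. Normalized, these were 34.6 and 50.5 against 20.9 and 22.2. Both knockdown libraries were below both scrambled libraries, and the knockdown pair lay close together. The log2 fold change was -0.996 (SE 0.31, 95% interval -1.64 to -0.36) with an unadjusted p of 0.00411 and an adjusted p of 0.0584 over all genes tested (edgeR), so *Timp3* missed the threshold. The log2 ratio was -0.71 within batch 1 and -1.17 within batch 2. Its chromosome had a median log2 fold change of 0.24, and with chromosome medians removed the value was -1.24 (adjusted p = 0.0275). Without scrambled 1 it was -1.23 (adjusted p = 0.0145) and without scrambled 2 it was -0.69 (adjusted p = 0.410). Over 12 alternatives the adjusted p lay between 0.0145 and 0.681 and was under 0.05 in 4.

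Summed, the 3 inhibitors had 2518 and 2510 reads (1815 and 1497 CPM) in scrambled cells and 2038 and 2094 reads (1483 and 1703 CPM) in knockdown, with *Timp1* at 55.5% to 65.1% of them. The number of TIMP reads per metalloproteinase read was 93.3 and 46.5 in scrambled cells and 92.6 and 140 in knockdown, so the groups overlapped. *Mmp15*, whose fall chose the set, made up 63.0% and 68.5% of the metalloproteinase reads in scrambled cells, so these ratios depend on that choice. The other enzymes had 10 and 17 reads in scrambled cells and 21 and 14 in knockdown, so the higher ratio in knockdown cannot be read apart from *Mmp15*.

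Other genes of the pathway were read from 10 lists of 98 genes, of which 31 had no read and 44 were tested. Of the 44, 2 were called higher and 5 lower, beside 2.33% and 3.22% of all genes tested, and the median log2 fold change was -0.01 against -0.00 over all genes tested. Other metalloproteinases were scarce, with 12 of 17 at 0 reads and *Mmp11* the one tested. *Mmp11*, stromelysin 3, had 34 and 33 reads in scrambled cells and 55 and 39 in knockdown (log2 fold change 0.68, SE 0.26, adjusted p = 0.134). *Mmp16*, another membrane-type enzyme, had 9 and 7 reads against 9 and 6. Of the other inhibitors, *Reck* had 0 and 3 reads against 2 and 3, *Timp4* had 1 read in all and *A2m* none.

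Plasmin and convertases can activate metalloproteinase proenzymes. In the list of plasminogen activation, 5 of 8 genes were tested, with a median log2 fold change of -0.81. *Plat*, which encodes tissue plasminogen activator, had 40 and 51 reads in scrambled cells and 6 and 14 in knockdown, well apart. It fell by 1.96 on the log2 scale (SE 0.38, adjusted p = 0.00386, edgeR). Without knockdown 1 the adjusted p of *Plat* was 0.0788 (log2 fold change -1.37) and without knockdown 2 it was 0.00138 (-2.80), and its alternatives gave adjusted p-values from 4.09e-06 to 0.0913. *Plaur*, the urokinase receptor, had 292 and 350 reads against 232 and 270 (log2 fold change -0.14, adjusted p = 0.662), and its sign turned without knockdown 1 (0.07). *Furin*, the convertase for membrane-type enzymes and the one gene tested of the 4 in its list, had 87 and 104 reads against 63 and 51 (log2 fold change -0.54, SE 0.19, adjusted p = 0.104), and was not called. *Pcsk7*, another convertase, had 2 and 1 reads in scrambled cells and none in knockdown.

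**Figure D4:**
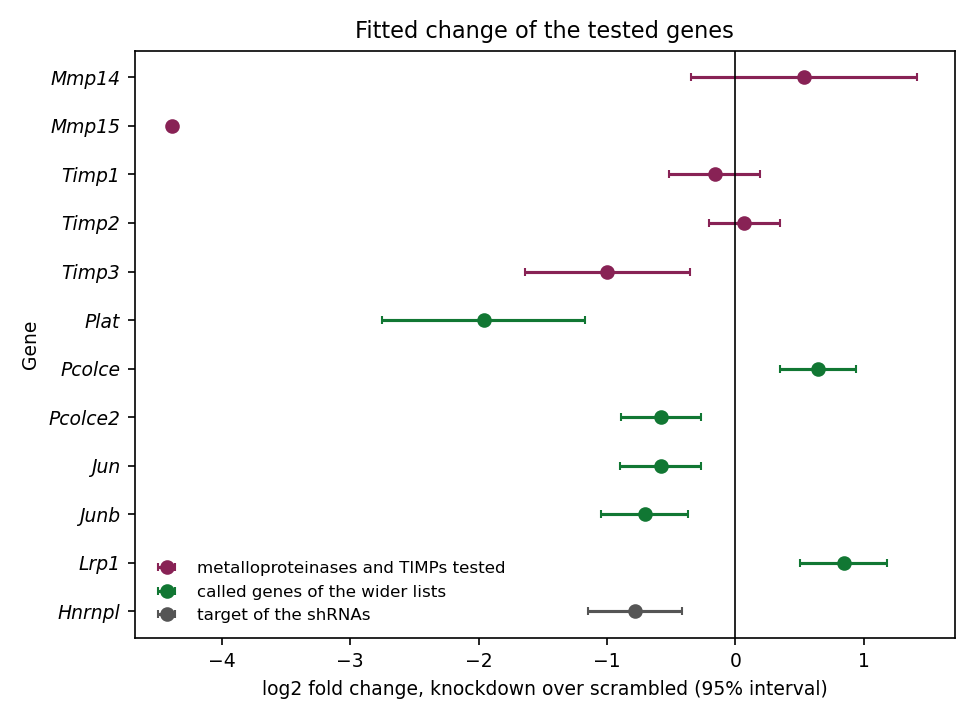
Fitted log2 fold change of knockdown over scrambled with its 95% interval (horizontal axis) for the 5 metalloproteinase and TIMP genes tested, 6 called genes of the wider lists and *Hnrnpl*. *Mmp15*, whose contrast chose the set, is drawn without an interval at -4.38, and the intervals of *Mmp14*, *Timp1* and *Timp2* cross 0.

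In the list of procollagen processing genes, 1 of 6 tested genes was called higher, beside 2.33% of all genes tested, and 1 lower, beside 3.22% (median -0.23). *Pcolce*, an enhancer of procollagen cleavage, had 390 and 452 reads in scrambled cells and 668 and 483 in knockdown, and rose by 0.64 (SE 0.14, adjusted p = 0.00934). Its adjusted p was 0.0806 without scrambled 2, 0.108 without knockdown 1 and 0.134 with chromosome medians removed. *Pcolce2*, its paralogue, had 406 and 539 reads against 261 and 282, and fell by 0.58 (SE 0.15, adjusted p = 0.0272), with a median of -0.37 on its chromosome. With chromosome medians removed its log2 fold change was -0.21 (adjusted p = 0.573), and its adjusted p was 0.112 without scrambled 2, 0.230 without knockdown 1 and 0.183 with DESeq2 and the parametric fit. *Lox*, a collagen crosslinking enzyme, had 965 and 1037 reads against 963 and 825 (log2 fold change 0.03, adjusted p = 0.923).

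Among transcription factors of the AP-1 and ETS families, known regulators of metalloproteinase promoters, 2 of 7 tested genes were called lower, beside 3.22% of all genes tested, and none higher, while the median was 0.27. *Junb* had 312 and 426 reads in scrambled cells and 242 and 152 in knockdown, and fell by 0.71 (SE 0.16, adjusted p = 0.0125). Without knockdown 2 its adjusted p was 0.111, and with DESeq2 and the parametric fit it was 0.0973. *Jun* had 276 and 337 reads against 206 and 151, and fell by 0.58 (SE 0.15, adjusted p = 0.0275), with an adjusted p of 0.0692 to 0.146 when single libraries were left out, above the threshold without any of the 4. The call of *Jun* was lost in 7 of 12 alternatives, among them DESeq2 with the local fit (adjusted p = 0.0670) and the parametric fit (0.270) and removal of chromosome medians (0.0714). Of 11 surface partners, all tested, 1 was called higher, beside 2.33% of all genes tested (median 0.13). This was *Lrp1*, an endocytic receptor that clears metalloproteinases and TIMPs, with 146 and 181 reads in scrambled cells and 307 and 205 in knockdown, a rise of 0.84 (SE 0.16, adjusted p = 0.00364). Without knockdown 1 its adjusted p was 0.0788. *Cd63*, which binds TIMP1, and *Bsg*, an inducer of metalloproteinases, had log2 fold changes of 0.28 and 0.35 and were not called.

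No gene was called in the lists of ADAM sheddases (4 of 10 tested, median -0.06), ADAMTS proteases (4 of 19, median -0.29) or cathepsins and cystatins (5 of 7, median 0.21). At an unadjusted p under 0.05 there were 1, 2 and 3 genes in these lists, beside 1894 of the 8670 genes tested. The best measured were *Ctsl* (log2 fold change 0.46, adjusted p = 0.0584) and *Cstb* (0.44, adjusted p = 0.0567), a lysosomal protease and a protease inhibitor, then *Adam9* (0.38, adjusted p = 0.209) and *Adam10* (-0.19, adjusted p = 0.514). *Adam10* turned to 0.18 with chromosome medians removed, and *Ctsl* and *Cstb* were each above 0 in all 12 alternatives. Without knockdown 1 *Ctsl* met the rule for a call (log2 fold change 0.56, adjusted p = 0.0488, in a range of 0.00639 to 0.488 over its alternatives). *Adamts6* (-0.75, adjusted p = 0.158) and *Adamts1* (0.16, adjusted p = 0.821) were the best measured of their list, and *Adamts1* turned to -0.13 with chromosome medians removed.

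The 5 genes whose values lay nearest to those of *Mmp15* were found among 2316 genes with a mean normalized count within 2-fold of its own, by the Euclidean distance of log2 CPM over the 4 libraries. These are a description, since the likeness includes the fall in the knockdown. *Cited1*, a transcriptional coregulator, was nearest (distance 1.06), with 15 and 20 reads in scrambled cells and 1 and 0 in knockdown. *Pknox2*, a homeobox gene, followed (1.19), with 25 and 35 reads against 1 and 4, and then *Ppef1*, a phosphatase gene (1.23), with 12 and 19 against 0 and 2. *Sprr1a*, a cornified envelope gene, had 17 and 23 reads against 1 and 4, and *Sulf2*, which edits heparan sulfate at the cell surface, had 27 and 35 against 3 and 3 (distance 1.25 for both). The differences between these distances rest on a few reads.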

How the data were processed

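The authors used guppy for basecalling, aligned the direct RNA reads to GRCm39 by minimap2 2.17, handled the alignments with SAMtools and counted reads per gene with HTSeq 0.9.1 (versions and build from the submitters' processing notes). The deposited files hold whole, unnormalized counts for 56748 gene IDs in each of 4 libraries, of which 56017 matched GENCODE vM39. The annotation release and the strand setting of the counting are not given in the sources used here. Reads that fit several genes (16.0% to 16.5% per library) were left out by the counting.

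Here the counts were tested in edgeR 4.0.16 (R 4.3.3) by the quasi-likelihood test on all 4 libraries, with TMM normalization, filterByExpr and Benjamini-Hochberg adjustment over 8670 genes. A call required a mean normalized count over 10, a log2 fold change beyond 0.5 in either direction and an adjusted p under 0.05, as in the study. DESeq2 1.42.0, with the local fit of the study and with the parametric fit, was an alternative, as were other factors and filters, the replicate block, removal of chromosome medians and each library left out. The tests were tried on simulated data. Intervals of counts cover counting error only.

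Replicate numbers pair the libraries by labelled batch. Over 8670 genes, the scrambled and knockdown libraries of batch 1 deviated from their group means with a correlation of -0.02. The 2 scrambled libraries differed by a chi-square of 2.40 per gene and the knockdown libraries by 2.59, where counting error alone gives 1, so no library was counted as a copy of another.

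The genes, lists and tests were chosen with earlier results of these data known. The text names all 9 genes of the set, *Hnrnpl*, the called genes (1 of which is not reported here) and the 2 with the highest mean normalized count of each list, the 5 genes nearest to *Mmp15*, and, chosen after their values were seen, its neighbours, *Gm56768* and the genes opposite the 3′ ends. Sequences were read from GRCm39.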

Additional observations from a re-analysis of the deposited data

How the results depend on the processing

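Of the 9 genes, 4 had too few reads to pass the filter, and the 95% interval of *Mmp14*, with 8 to 18 reads per library, spanned -0.35 to 1.42. Against 481 genes called, DESeq2 called 228 (local fit) and 115 (parametric fit), removal of chromosome medians left 285, and leaving out single libraries gave 194 (without knockdown 1) to 433. Against 7 genes called over the wider lists, counted anew in each setting, there were 3 with DESeq2 and the parametric fit and 4 (without knockdown 1) to 9 with single libraries left out. With the replicate block, 484 genes and 8 list genes were called. The block changed no other call among the tested genes of the set, *Hnrnpl* and the tested genes named from the lists, *Ctsb* aside. It was fitted to all genes tested, but its values for *Ctsb* and the other genes named are not given here. Besides *Mmp15*, 0 of the 9 genes were called, or 1 (*Timp3*) with no filter, with at least 10 counts in every library, with chromosome medians removed and without scrambled 1; the range over libraries left out was 0 to 1. The value of *Mmp15*, whose direction the choice of genes fixed, lay from -4.71 to -3.90 (both with a library left out) in 11 alternatives, and the filter of 10 counts in every library removed it. With single libraries left out, *Timp1* ranged from -0.39 to 0.094, *Plaur* from -0.38 to 0.073, *Adamts1* from -0.13 to 0.49 and *Lox* from -0.079 to 0.14. With chromosome medians removed, *Adam10* was at 0.18 and *Adamts1* at -0.13. The causes were not tested.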
